A study of Saccharomyces cerevisiae with 30 samples.

Results

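The late transcript response of yeast to blocked maturation of the large ribosomal subunit was followed in wild-type cells after 45 min in diazaborine (DZA). The comparison takes 4 of the 30 samples of the series: the libraries A and B of cells treated with DZA at 15 µg/ml for 45 min, and the libraries A and B of cells given the vehicle alone, 0.1% DMSO, for the same 45 min. All 7126 annotated features of the table that holds these 4 libraries were taken, and 6476 of them, those whose normalized counts averaged 10 or more over the libraries, were tested. Both groups are BY4741, a haploid MATa laboratory strain of Saccharomyces cerevisiae, grown to mid-log phase in rich YPD medium, with the replicates grown on separate days. The labels name no tagged or deleted gene for either group beyond the genotype of the strain, and the treatments differ in the drug. Total RNA depleted of rRNA was sequenced with strand-marked libraries.

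DZA inhibits Drg1 (encoded by AFG2), a hexameric AAA-ATPase that strips the shuttling protein Rlp24 from pre-60S particles as they reach the cytoplasm. When this step is blocked, later factors are not released, the last ribosomal proteins (r-proteins) do not join, and assembly factors are not recycled to the nucleus. Heat shock factor 1 (Hsf1) drives chaperone genes when chaperones are occupied by unfolded or unassembled proteins, Rpn4 drives the genes of the proteasome, Msn2 and Msn4 drive the general environmental stress genes, and Pdr1 and Pdr3 drive multidrug transporters. These regulons, together with the genes of the ribosome itself, are the classes described here.

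The 4 libraries held between 25015296 and 99585064 reads on features, with replicate A the deeper one in both groups. The a-cell genes MFA1, MFA2, STE2, STE6 and BAR1 each had 1398 reads or more in every library, while LEU2, URA3 and MET17, which are deleted in BY4741, had 0 reads in all 4. Of the alpha-cell genes, MF(ALPHA)1 and MF(ALPHA)2 had at most 47 reads in a library and STE3 at most 335, while the fourth, SAG1, was not low, with 3742 and 1541 reads in DZA and 3257 and 789 in DMSO.

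At 45 min the response was broad. Of the 6476 features tested with limma, 3069 had an adjusted p under 0.05 (47.4%), and these are the ones called changed here. They comprised 1537 features that were higher (23.7%) and 1532 that were lower (23.7%) in DZA than in DMSO. At least 2-fold higher were 644 of them (9.94%) and at least 2-fold lower 226 (3.49%), on the log2(normalized count + 1) scale. Features called higher took 21.3% and 21.2% of the reads in the DZA libraries and 10.2% and 10.4% in the DMSO libraries. Those called lower took 39.2% and 39.7% in DZA and 54.9% and 55.0% in DMSO. Among nuclear open reading frames, the median level in DMSO per kb of coding length was 5957 normalized counts for those called lower, 1475 for those called higher and 2209 for those not called.

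These values are relative to the size factors with which the table was normalized, and say nothing of RNA per cell. The normalized counts summed to 46673823 and 46876228 in the DZA libraries, against 57831627 and 56873964 in the DMSO libraries. When the same reads were scaled to the total reads of each library instead, a scaling chosen after the data were seen, the median over all features was 0.28 in place of -0.012 on the log2 scale and the calls split into 3035 higher (46.9%) and 627 lower (9.68%), 56.5% in all. With the replicate letter as a block, limma called 4831 features (74.6%), 2290 of them higher (35.4%) and 2541 lower (39.2%). Both DZA libraries lay above both DMSO libraries in 2403 features (37.1%) and below them in 2464 (38%), so groups that do not overlap are common here. A gene or list whose value lies between 0 and about -0.29 therefore has a direction that depends on the scaling. With 2 libraries a group no exact permutation test over libraries can pass the threshold, so all p-values come from models fitted across features. The counts called in each list below are to be read against the 23.7% of all features called in each direction. Counts with the replicate block are to be read against 35.4% higher and 39.2% lower. Those scaled to total reads are to be read against 46.9% higher and 9.68% lower.

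**Figure D1:**
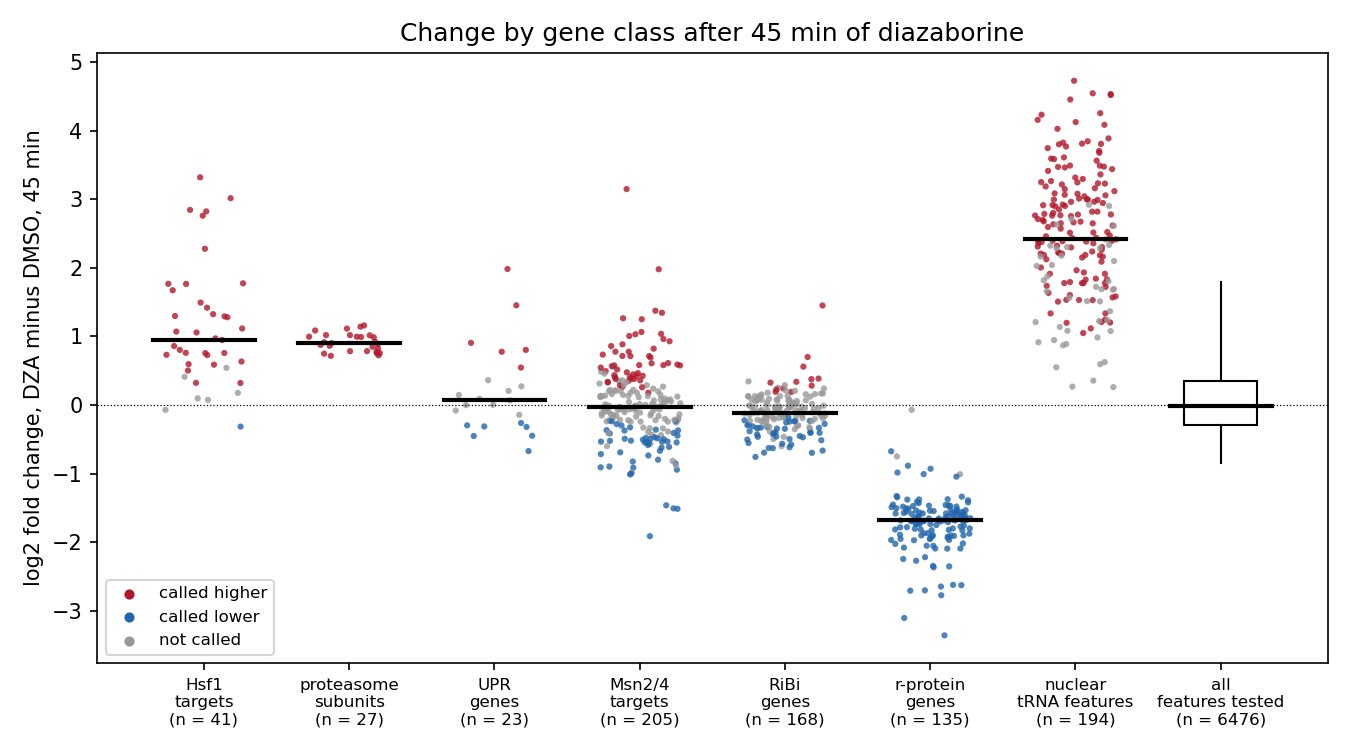
Log2 fold change (DZA minus DMSO, 45 min, vertical axis) of each tested member of the 6 classes of the study and of the nuclear tRNA features, coloured by call, with a black bar at the class median; the box at the right spans the 25th to 75th percentile of all 6476 features and its lines the 5th to 95th. The proteasome subunits lie in a narrow band above 0, with a median of 0.90, and the r-protein genes below it, with a median of -1.68.

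The Hsf1 targets rose as a group. Of the 41 genes in the copy of the study's list used here, 34 were called higher and 1 lower, against 23.7% in each direction over all features. The median of their log2 fold changes was 0.95 ± 0.018, where the error is the SD of the medians obtained from the A libraries alone and the B libraries alone, against -0.012 over all features. The study chose this list and those of the other 5 classes. The share of all reads on these 41 genes was 4.62% and 4.57% in the DZA libraries and 1.82% and 1.86% in the DMSO libraries.

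BTN2, which encodes a sorting factor that gathers misfolded proteins into cytosolic deposits, had 27226 and 28782 normalized counts in the DZA libraries, against 2756 and 2851 in the DMSO libraries. It was the member that rose most, with a log2 fold change of 3.32 ± 0.056 (SE, limma adjusted p = 0.00017). SSA4, the stress-inducible cytosolic Hsp70, had 14373 and 14237 normalized counts in DZA and 1703 and 1835 in DMSO. Both DZA libraries lay far above both DMSO libraries for each of these genes, with a log2 fold change of 3.02 ± 0.061 (SE, limma adjusted p = 0.00017) for SSA4. HSP42, a small heat shock protein that co-aggregates with misfolded proteins, stood at 22858 and 21888 normalized counts in DZA, against 3229 and 3001 in DMSO. It rose by 2.84 ± 0.062 on the log2 scale (limma adjusted p = 0.00017), again with no overlap.

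The abundant chaperones rose as well. HSP82, the stress-inducible Hsp90, had 169361 and 158639 normalized counts in DZA and 23152 and 23184 in DMSO, a log2 fold change of 2.82 ± 0.058 (SE, limma adjusted p = 0.00017). Its constitutive copy HSC82 had 408685 and 368004 in DZA and 241257 and 226859 in DMSO, a smaller log2 fold change of 0.73 ± 0.089 (SE, limma adjusted p = 0.0042). The groups did not overlap for either gene, but the copies are nearly identical and reads between them could be split by the counting. SSA1, a constitutive and inducible Hsp70 with a near-identical copy in SSA2, had 133823 and 141059 normalized counts in DZA and 27701 and 28945 in DMSO. It was called higher with a log2 fold change of 2.28 ± 0.059 (SE, limma adjusted p = 0.0002), and HSP104, the disaggregase, with a log2 fold change of 1.77 ± 0.064. HSF1 itself had 9164 and 9249 normalized counts in DZA and 5139 and 5236 in DMSO, a log2 fold change of 0.83 ± 0.048 (SE, limma adjusted p = 0.00074).

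**Figure D2:**
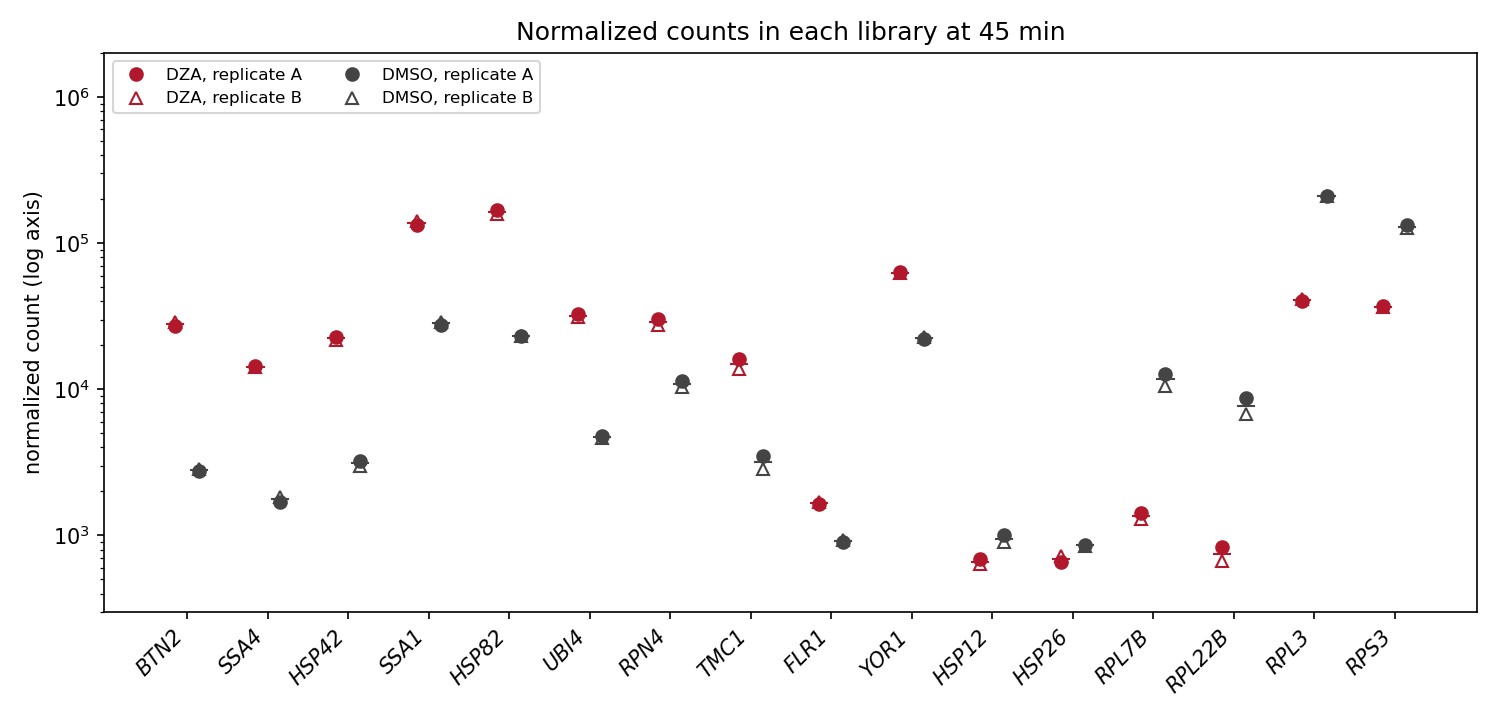
Normalized counts (log axis) of 16 genes in each library at 45 min, with DZA at the left and DMSO at the right of each gene; circles are replicate A, triangles replicate B, and the short lines group means. For every gene shown the 2 DZA libraries lie on one side of the 2 DMSO libraries, above for the 10 genes at the left and below for HSP12, HSP26 and the r-protein genes.

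Other genes of the Hsp70 and Hsp90 systems rose too. In the cytosolic Hsp70 system 11 of 13 genes were called higher, with a median of 0.76. FES1, a nucleotide exchange factor that releases misfolded clients, rose by 1.30, while SNL1, a membrane-bound exchange factor, was the 1 called lower (-0.52). In the Hsp90 system 8 of 12 were called higher, including the co-chaperones CPR6 (1.77) and STI1 (1.32), while CPR7 (-0.19) and PPT1 (-0.29) were called lower and turn positive when scaled to total reads. CUR1, a BTN2 paralog, had a log2 fold change of 1.77. The chaperones that sit on the ribosome went the other way: SSB1, the Hsp70 that binds nascent chains, had 97773 and 96209 normalized counts in DZA and 202116 and 197819 in DMSO, a log2 fold change of -1.04 ± 0.058 (SE, limma adjusted p = 0.00066). Of the 7 ribosome-bound chaperones 4 were called lower, with SSB2 at -0.85 and EGD1, a subunit of the nascent polypeptide-associated complex, at -0.82.

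The chaperonin CCT, which folds actin and tubulin, and prefoldin, which hands it clients, had 7 of 14 genes called higher and 1 lower (9 and 3 with the replicate block), with smaller values (CCT8 0.75, CCT3 0.68). Among the mitochondrial chaperones and their protease 5 of 11 were called higher and 2 lower (9 and 2 with the replicate block, 9 and 0 when scaled to total reads), led by MDJ1, the Hsp40 of the matrix, at 1.29 and PIM1, the Lon protease, at 1.12. The 2 called lower were ZIM17 (-0.32) and MGE1 (-0.32), which encode cofactors of the matrix Hsp70. The single Hsf1 target called lower was HSP26, a small heat shock protein that Msn2 and Msn4 also drive. It had 654 and 721 normalized counts in DZA and 857 and 850.3 in DMSO, a log2 fold change of -0.31 ± 0.093 (SE, limma adjusted p = 0.0498). That call sat at the threshold. It was kept with the replicate block (limma adjusted p = 0.0027). It was lost under TMM scaling (-0.29), with edgeR (-0.29) and with DESeq2 (-0.31), and when any 1 of the 4 libraries was left out (-0.38 to -0.24).

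Hsf1 binds heat shock elements, in which the units GAA and TTC alternate. A strict form of 3 units, each set off from the next by 2 free bases (TTC, GAA, TTC or GAA, TTC, GAA, which are each other's reverse on the other strand), was searched for in the 500 bases before the annotated start of 6004 nuclear genes in the R64 assembly of RefSeq. It was present upstream of 89 of them (1.48%) and of 18 of the 41 Hsf1 targets (43.9%). Of these 18 targets 17 were called higher, with a median log2 fold change of 1.07. The 23 targets without the strict form had 17 genes called higher and a median of 0.95. Outside the list, 69 tested genes had a match, and 11 of them were called higher (15.9%) and 20 lower (29%). Among all tested genes without a match the shares were 20.7% and 26.2%. The stretches below show the elements of 6 of the genes that rose most or that regulate another class, with the matched bases in capitals and 20 flanking bases where the window allows.
BTN2 (chrVII:772090-772147, plus strand): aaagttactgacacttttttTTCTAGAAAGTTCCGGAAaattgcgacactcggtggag
HSP42 (chrIV:806358-806415, plus strand): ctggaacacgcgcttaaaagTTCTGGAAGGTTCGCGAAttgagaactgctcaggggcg
HSP104 (chrXII:88301-88358, plus strand): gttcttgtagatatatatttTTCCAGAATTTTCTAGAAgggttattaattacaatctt
SSA1 (chrI:141660-141815, minus strand): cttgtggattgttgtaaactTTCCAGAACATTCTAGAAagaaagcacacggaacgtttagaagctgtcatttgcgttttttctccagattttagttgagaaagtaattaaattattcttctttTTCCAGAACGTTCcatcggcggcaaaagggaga
UBI4 (chrXII:65554-65611, minus strand): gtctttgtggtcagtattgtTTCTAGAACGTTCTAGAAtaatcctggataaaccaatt
RPN4 (chrIV:416709-416749, minus strand): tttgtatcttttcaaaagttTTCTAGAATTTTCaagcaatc
In BTN2, HSP42, HSP104, UBI4 and the first run of SSA1 overlapping matches give 4 alternating units without a break. The stretch of RPN4 ends just before its start codon and shows 1 of 2 matches.

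The proteasome subunits moved together. All 27 genes on the list were called higher, between 0.72 and 1.16, with a median of 0.90 ± 0.043. RPT2, an ATPase of the base of the 19S regulatory particle, had 27822 and 28754 normalized counts in DZA and 11687 and 13687 in DMSO, a log2 fold change of 1.16 ± 0.089 (SE, limma adjusted p = 0.0014). RPN7, a subunit of the 19S lid, had 33287 and 34148 in DZA and 15251 and 15281 in DMSO, and PRE8, an alpha ring subunit of the 20S core, rose by 1.12 on the log2 scale. The 27 genes took 1.37% and 1.36% of reads in DZA and 0.582% and 0.592% in DMSO.

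RPN4, the transcription factor of these genes and a short-lived substrate of the proteasome, had 30478 and 27661 normalized counts in DZA and 11379 and 10354 in DMSO, a log2 fold change of 1.42 ± 0.079 (SE, limma adjusted p = 0.00066). Among the 14 genes of proteasome assembly and regulation 9 were called higher. TMC1, an AN1-type zinc finger protein, had 16048 and 13792 normalized counts in DZA, against 3494 and 2867 in DMSO, a log2 fold change of 2.23 ± 0.13 (SE, limma adjusted p = 0.00071). The related CUZ1, which binds Cdc48 and the proteasome, had a log2 fold change of 1.53. POC4, a chaperone of the alpha ring, was the 1 gene called lower (-0.60).

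UBI4, the stress-induced polyubiquitin gene, had 32652 and 31111 normalized counts in DZA and 4799 and 4609 in DMSO, a log2 fold change of 2.76 ± 0.054 (SE, limma adjusted p = 0.00017). It is also on the Hsf1 list. DDI1, a shuttle and protease for ubiquitinated proteins, had 11874 and 12590.4 in DZA and 2843 and 2997 in DMSO, a log2 fold change of 2.07 ± 0.061 (SE, limma adjusted p = 0.00022). Of the 20 genes of the ubiquitin and Cdc48 pathway 15 were called higher and 1 lower (17 and 2 with the replicate block), with a median of 0.87. The ubiquitin-conjugating enzyme UBC5 rose by 1.52, while the ligase gene RSP5 had -0.35. The ribosome quality control genes, which act on stalled 60S subunits, had 1 of 7 called higher (4 higher and 1 lower with the replicate block), RQC2, which elongates the stalled chain, at 0.68.

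Rpn4 binds the proteasome-associated control element (PACE), searched for here as GGTGGCAAA on either strand. It lay within 500 bases upstream of 99 of 6004 genes (1.65%) and of 23 of the 27 subunits (85.2%). Stretches are shown from a base, a core and a lid subunit, from both zinc finger genes and from UBI4, which carries the heat shock element above as well, with the element in capitals.
RPT6 (chrVII:411342-411390, minus strand): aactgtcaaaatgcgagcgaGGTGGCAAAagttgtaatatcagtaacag
PRE6 (chrXV:255208-255256, plus strand): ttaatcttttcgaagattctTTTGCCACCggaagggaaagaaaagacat
RPN12 (chrVI:252388-252436, plus strand): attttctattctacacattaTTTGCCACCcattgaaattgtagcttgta
TMC1 (chrXV:427447-427495, minus strand): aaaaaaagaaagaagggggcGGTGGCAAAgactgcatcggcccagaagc
CUZ1 (chrXIV:342305-342353, plus strand): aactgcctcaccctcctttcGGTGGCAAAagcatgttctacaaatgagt
UBI4 (chrXII:65339-65387, minus strand): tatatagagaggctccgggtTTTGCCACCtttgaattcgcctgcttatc
In PRE6, RPN12 and UBI4 the element is read from the other strand. Of the 76 tested genes that have a match and are not proteasome subunits, 46 were called higher (60.5%) and 10 lower (13.2%), with a median of 0.53. Among the 5639 tested genes with no match 1131 were called higher (20.1%), with a median of -0.053. Divergent neighbours can share a match, and a match is only a description of these letters. ECM29, which tethers the 2 parts of the 26S proteasome, and NAB2, a poly(A)-binding protein, are among the 46, chosen for naming after their values were seen, with log2 fold changes of 2.22 and 1.91.

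Many multidrug genes rose as well. Of 27 efflux pumps and regulators, 16 were called higher and 3 lower (19 and 5 with the replicate block), with a median of 0.42 ± 0.052. YOR1, an ABC transporter of the plasma membrane, had 63087 and 62470.2 normalized counts in DZA and 21999.6 and 22742 in DMSO, a log2 fold change of 1.49 ± 0.049 (SE, limma adjusted p = 0.00024). PDR5, the main multidrug pump, had 324668 and 377561 in DZA, against 193519 and 220434 in DMSO, a log2 fold change of 0.76 ± 0.12 (SE, limma adjusted p = 0.0077). Neither gene overlapped between the groups, and PDR5 was the more abundant of the pair. ICT1, a lysophosphatidic acid acyltransferase on the same regulon, rose by 1.69 and RSB1, a transporter of sphingoid bases, by 1.54.

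FLR1, a pump whose gene is a target of Yap1, had 1637 and 1695 normalized counts in DZA and 901 and 929.9 in DMSO (0.86 ± 0.073 on the log2 scale, limma adjusted p = 0.0017), and ATR1, another Yap1 target, rose by 0.40. Of the regulators, PDR1 had a log2 fold change of 0.98 and YAP1, the oxidant-responsive factor, of 0.998, both called higher. PDR3 had 5299 and 5792 normalized counts in DZA and 4928 and 5234 in DMSO and was not called (0.13 ± 0.071, limma adjusted p = 0.21). The polyamine exporter TPO3 (-0.92) and the transporter QDR2 (-0.44) were called lower.

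The pleiotropic drug response element, searched for as TCCGCGGA, TCCGTGGA and the reverse TCCACGGA, was upstream of 100 of 6004 genes (1.67%) and of 10 of the 27 on the list (37%), of which 6 were called higher. The list members without it had 10 of 17 called higher. Stretches are shown for 3 genes that rose and for PDR3, which carries 2 elements and was not called. A further stretch is from RPN4, whose upstream bases hold this element and, closer to the start codon, the heat shock element.
ICT1 (chrXII:341087-341134, minus strand): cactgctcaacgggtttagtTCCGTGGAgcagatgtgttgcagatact
YOR1 (chrVII:1052403-1052450, plus strand): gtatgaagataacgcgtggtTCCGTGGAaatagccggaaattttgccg
PDR5 (chrXV:619445-619554, plus strand): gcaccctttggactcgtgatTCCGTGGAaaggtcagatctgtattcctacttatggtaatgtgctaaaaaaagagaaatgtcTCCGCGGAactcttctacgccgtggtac
PDR3 (chrII:217226-217306, plus strand): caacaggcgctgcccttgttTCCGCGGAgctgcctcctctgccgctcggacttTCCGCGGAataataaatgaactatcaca
RPN4 (chrIV:417080-417170, minus strand): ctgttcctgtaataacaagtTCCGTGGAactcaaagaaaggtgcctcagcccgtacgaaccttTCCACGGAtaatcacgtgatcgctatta
For PDR5 2 of 3 matches are shown. Outside the list, 35 of 87 tested genes with a match were called higher (40.2%) and 12 lower (13.8%), with a median of 0.15. Among all tested genes without a match the shares were 20.5% and 26.4%, with a median of -0.050.

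**Figure D3:**
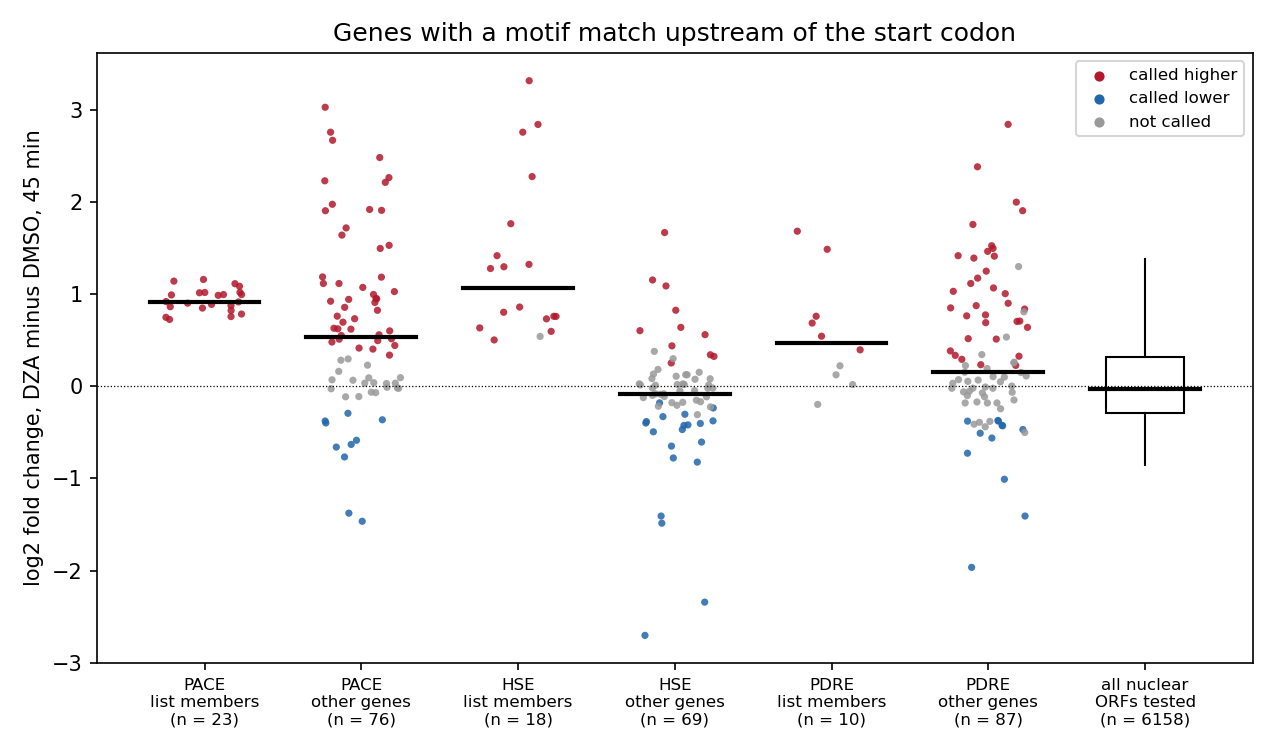
Log2 fold change (DZA minus DMSO, 45 min) of tested genes with a match to each element in the 500 bases before the gene, split into members of the matching list (proteasome subunits for PACE, Hsf1 targets for HSE, drug pumps for PDRE) and all other genes; black bars are medians, and the box spans the 25th to 75th percentile of all nuclear open reading frames tested, its lines the 5th to 95th. Other genes with PACE have a median of 0.53 and those with HSE of -0.081.

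Nearly all genes of the r-proteins fell. Of the 135 tested, 132 were called lower and 128 of these at least 2-fold, with a median of -1.68 ± 0.048. Their share of all reads was 5.55% and 5.34% in DZA and 14.7% and 14% in DMSO. Scaled to total reads, the median was -1.39, and 131 were called lower and 1 higher. In the 60S subunit 78 of 79 genes were called lower, with a median of -1.69, and 54 of 56 in the 40S subunit, with a median of -1.65. The 13 genes for r-proteins that join in the cytoplasm, at or after the step that DZA blocks, were all called lower, with a median of -1.68. Differences between these medians were not tested.

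RPL3, which encodes an early-assembling 60S protein and is present in 1 copy, had 40208 and 41417 normalized counts in DZA and 209768 and 210034 in DMSO, a log2 fold change of -2.36 ± 0.054 (SE, limma adjusted p = 0.00018). RPL10, whose protein joins last in the cytoplasm and completes the peptidyl transferase centre, had 48087 and 45296 in DZA and 158829 and 145783 in DMSO, a log2 fold change of -1.71 ± 0.072 (SE, limma adjusted p = 0.00033). For the 40S subunit, RPS3 had 37095 and 36499 in DZA and 132544 and 126163 in DMSO, with a log2 fold change of -1.81 ± 0.056. For all 3 genes both DZA libraries lay far below both DMSO libraries.

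Of the 10 largest falls over all features 8 were r-protein genes, each the B copy of a duplicated pair. RPL22B had 831 and 672 normalized counts in DZA and 8661 and 6768 in DMSO, a log2 fold change of -3.36 ± 0.17 (SE, limma adjusted p = 0.00053). Its copy RPL22A, the more abundant one, had 22211 and 21728 in DZA and 71965 and 68662 in DMSO, a log2 fold change of -1.68 ± 0.053. RPL7B had 1418 and 1299 in DZA and 12812 and 10611 in DMSO (-3.10 ± 0.11), against 14088 and 15141 in DZA and 42109.6 and 41561 in DMSO for RPL7A (-1.52 ± 0.057). Neither copy of either pair overlapped between the groups, and the B copy fell further in both. RPL31B (-2.77), RPL1B (-2.70), RPS7B (-2.70), RPL33B (-2.64), RPL27B (-2.62) and RPL4B (-2.62) were the others.

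Over all 59 pairs the B copy had the more negative value in 37 and the A copy in 22, with a median difference (B minus A) of -0.23. The difference had the same sign in replicate A and replicate B in 57 pairs. In 24 pairs the copies were more than 0.5 apart on the log2 scale, the B copy lower in 17 of them and the A copy in 7. The copy with the lower level per coding length in DMSO fell more in 41 of the 59 pairs. Copies of a pair are similar to nearly identical in coding sequence, and how reads matching both were counted was not tested. The pairs that went the other way included RPL8 (A -2.35, B -1.53) and RPL15 (A -2.02, B -0.75), named after their values were seen. The 89 genes with an intron had a median of -1.68 and the 48 without one of -1.67, over the 137 genes that include RPL24A and RPP2B, which the copy of the list used here lacks.

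**Figure D4:**
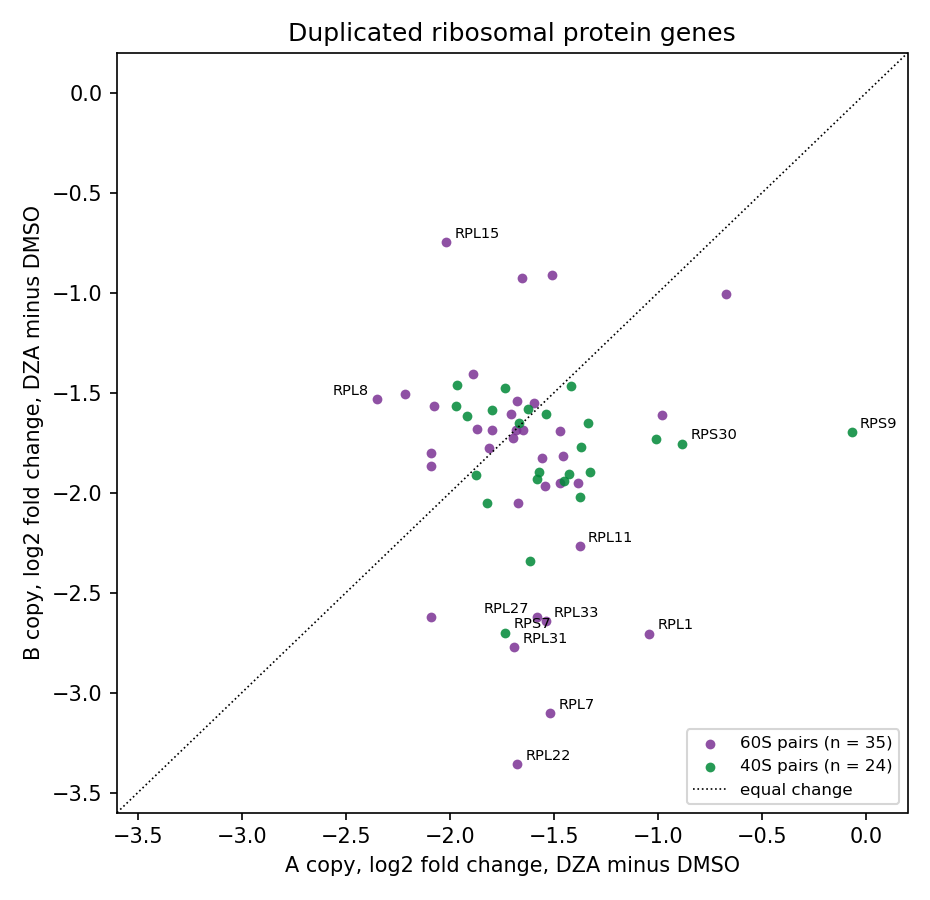
Log2 fold change (DZA minus DMSO, 45 min) of the A copy (horizontal axis) and the B copy (vertical axis) of the 59 duplicated r-protein genes, coloured by subunit, with a dotted line where both copies change equally; pairs more than 0.8 apart are named. The A copies have a median of -1.63 and the B copies of -1.73, and RPL22, RPL7, RPL1 and RPS9 lie furthest below the line.

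The 3 members not called were RPS9A, RPL15B and RPS28A. RPS9A had 10234 and 10386 normalized counts in DZA and 10894 and 10736 in DMSO, a log2 fold change of -0.069 ± 0.046 (limma adjusted p = 0.28), although its copy RPS9B fell by 1.70 on the log2 scale. Scaled to total reads, RPS9A was the 1 r-protein gene called higher, so its direction depends on the scaling. RPL15B had 1748 and 1275 in DZA and 2949.5 and 2130.3 in DMSO, and RPS28A 19174 and 11241 in DZA and 40133 and 21708 in DMSO. For both the libraries of replicate A lay above those of replicate B within each treatment, and with the replicate block both were called lower.

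The genes that build ribosomes did not follow the r-protein genes. Of the 168 ribosome biogenesis (RiBi) genes, 12 were called higher (7.1%) and 42 lower (25%), with a median of -0.12 ± 0.027. Over all features the share was 23.7% each way, so the share called lower lay close to it and the share called higher below it. With the replicate block the counts were 32 higher and 94 lower. Scaled to total reads they turned to 66 higher and 10 lower, with a median of 0.18, so the direction of this class as a whole depends on the scaling. RiBi genes took 3.41% and 3.31% of reads in DZA and 3.07% and 3.12% in DMSO.

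REH1, which encodes a cytoplasmic pre-60S factor that is a paralog of the Arx1-releasing factor Rei1, had the highest value among them, with 18213 and 16486 normalized counts in DZA and 6517 and 6152 in DMSO. Both DZA libraries lay above both DMSO libraries, with a log2 fold change of 1.45 ± 0.071 (SE, limma adjusted p = 0.00052). The drug target itself showed little: AFG2 had 6184 and 6289.7 normalized counts in DZA and 5660.3 and 5809 in DMSO (0.12 ± 0.05, limma adjusted p = 0.11). RLP24, the gene of the protein Drg1 releases, had 9139 and 8332 in DZA and 9893 and 9626 in DMSO (-0.16 ± 0.065, limma adjusted p = 0.1) and was not called either, its value being positive when scaled to total reads. Of the 20 genes for Drg1 and the shuttling pre-60S factors 1 was called higher and 7 lower (3 and 13 with the replicate block), with BUD20 (-0.59), a shuttling factor, NOG1 (-0.46), a GTPase of the pre-60S particle, and RIA1 (-0.45), the GTPase that releases Tif6, lowest, but their median of -0.19 became 0.11 when scaled to total reads.

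The counts for nucleolar steps depended on the fit and the scaling. Of 42 genes of the small-subunit processome 4 were called higher (9.5%) and 11 lower (26.2%), or 11 and 21 with the replicate block. UTP22 had -0.69 and RRP5 -0.63. Of 49 nuclear 60S assembly factors 0 were called higher and 13 lower (26.5%), or 7 and 33 with the replicate block, with the helicase gene DBP3 at -0.69. In both lists the share called lower lay close to the 23.7% of all features. Scaled to total reads, 20 of the processome genes and 18 of the 60S factors were called higher and 3 and 1 lower, and the medians of both lists turned positive, 0.22 and 0.15 in place of -0.073 and -0.15. Among the 26 genes for pre-rRNA nucleases, the exosome and its cofactors 3 were called higher and 0 lower (11 and 6 with the replicate block), the higher ones being NAB3 (0.92) and NRD1 (0.63), which end short noncoding transcripts, and TRF5 (0.62), a polyadenylating exosome cofactor. The 12 dedicated r-protein chaperones had 2 called higher and 2 lower (4 and 3 with the replicate block). SQT1, the chaperone of Rpl10, had 11347 and 10343 normalized counts in DZA and 10859.6 and 9942 in DMSO, and was not called (0.06 ± 0.076, limma adjusted p = 0.56), with a value below 0 when DZA replicate A or DMSO replicate B was left out (as low as -0.0067). The element PAC (GCGATGAG), typical of RiBi genes, was upstream of 75 of the 168 (44.6%) and of 4.83% of all genes. The members with it had a median of -0.08 and those without it of -0.16. The element RRPE (AAAAATTTT) was upstream of 102 of the 168 (60.7%) and of 9.46% of all genes. Of the members with RRPE 32.4% were called lower, and of those without it 13.6%. Over all tested genes with a promoter the shares were 36.7% with RRPE and 25.1% without.

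Regulators and polymerases varied singly. CRF1, a corepressor of r-protein genes, had 491 and 524 normalized counts in DZA and 199.8 and 209 in DMSO, a log2 fold change of 1.31 ± 0.11 (SE, limma adjusted p = 0.0018). SFP1, an activator of r-protein and RiBi genes, had 5353 and 5820.4 in DZA and 6716 and 7179.9 in DMSO, a log2 fold change of -0.31 ± 0.07 (limma adjusted p = 0.022), a call lost without DZA replicate A or DMSO replicate B, and DOT6, a RiBi repressor, had -0.94. IFH1, the coactivator at r-protein promoters, was not called (-0.21, limma adjusted p = 0.064) and was positive when scaled to total reads. RRN3, the initiation factor of RNA polymerase I, rose by 0.53, while its largest subunit RPA190 had -0.33 and 5 of 12 genes of RNA polymerase III were called lower and 0 higher (5 and 2 with the replicate block), a list whose median of -0.084 became 0.21 when scaled to total reads. Translation factors fell more uniformly: 24 of 30 were called lower, with a median of -0.41 ± 0.0072, and 13 when scaled to total reads, with a median of -0.12. EFT2 and EFT1, the near-identical genes of elongation factor 2, had log2 fold changes of -1.35 and -0.89, and STM1, a ribosome-associated factor, of -1.26.

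The Msn2/4 targets moved in both directions. Of 205 tested, 52 were called higher and 49 lower, shares of 25.4% and 23.9% that lie close to the 23.7% of all features in each direction, and their median was -0.025 ± 0.013. With the replicate block 81 were called lower, and scaled to total reads 94 were called higher and 24 lower, with a median of 0.27. HSP12, a membrane-stabilising stress protein and a common marker of this regulon, had 685 and 638 normalized counts in DZA and 1001 and 896 in DMSO, a log2 fold change of -0.52 ± 0.10 (SE, limma adjusted p = 0.016), a call lost without DZA replicate B or DMSO replicate A. TPS2, the trehalose phosphatase, had 7835 and 8301 in DZA and 11059.9 and 11402 in DMSO, a log2 fold change of -0.48 ± 0.055 (SE, limma adjusted p = 0.0037). CTT1, the cytosolic catalase, had 789.7 and 709 in DZA and 829 and 800.3 in DMSO and was not called (-0.12 ± 0.097, limma adjusted p = 0.35), with a positive value when scaled to total reads. HSP12 and TPS2 thus lay lower in both DZA libraries than in both DMSO libraries.

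Other members rose strongly. BAG7, a GTPase-activating protein for Rho1, had 360.0 and 361 normalized counts in DZA and 36.6 and 43.2 in DMSO, a log2 fold change of 3.15 ± 0.17 (SE, limma adjusted p = 0.00064). SHC1, a chitin synthase activator, rose by 1.98 and USV1, a zinc finger factor, by 1.38, while HXK1, hexokinase 1, had -1.91, the glycogen phosphorylase gene GPH1 -1.51 and COA2, a cytochrome oxidase assembly factor, -1.50. Of 17 trehalose and glycogen enzymes 9 were called lower and 2 higher (13 and 4 with the replicate block), and their median of -0.26 became 0.038 when scaled to total reads. The stress response element AGGGG was upstream of 94.2% of the targets and of 34.1% of all genes. MSN2 was not called (-0.16, and positive when scaled to total reads) and MSN4 rose by 0.41. Of 14 stress transcription factors 9 were called higher, among them XBP1, a stress-induced repressor, at 1.01, and 3 lower, HAC1 (-0.57), GCN4 (-0.47) and SKN7 (-0.28), none of which was called when scaled to total reads, where SKN7 turned positive. Thiol and peroxide defence genes had 6 of 27 higher (22.2%) and 8 lower (29.6%), shares near the 23.7% of all features (10 and 11 with the replicate block). Their median of -0.023 turned to 0.27 when scaled to total reads. TRX2, a thioredoxin and Yap1 target, had 0.38 and SOD2, the mitochondrial superoxide dismutase, -0.67.

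Genes of the unfolded protein response (UPR) of the endoplasmic reticulum were called in both directions, at shares near those of all features. Of the 23 on the list 6 were called higher (26.1%) and 7 lower (30.4%), against 23.7% each way over all features. Their median was 0.071 ± 0.11, and with the replicate block 10 were called higher and 8 lower. Scaled to total reads 10 were called higher and 1 lower, with a median of 0.36. INO1, the inositol synthase, had 1520.2 and 1686 normalized counts in DZA and 397 and 412 in DMSO, a log2 fold change of 1.98 ± 0.095 (SE, limma adjusted p = 0.00049). ERO1, the oxidase that regenerates disulphide donors, had 26046 and 24907 in DZA and 9381 and 9203 in DMSO, a log2 fold change of 1.45 ± 0.05 (SE, limma adjusted p = 0.00025), and both genes were clear of any overlap. KAR2, the Hsp70 of this compartment and also an Hsf1 target, rose by 0.80. EUG1, a protein disulphide isomerase, had -0.67, and HAC1, the gene whose spliced message encodes the activator of this response, had 52492 and 43613 normalized counts in DZA and 77144 and 65529 in DMSO, a log2 fold change of -0.57 ± 0.13 (SE, limma adjusted p = 0.023). The counts do not distinguish spliced from unspliced HAC1 messages.

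Many biosynthetic genes fell. In amino acid synthesis 26 of 41 genes, GCN4 included, were called lower and 3 higher (30 and 7 with the replicate block), and 15 lower and 9 higher when scaled to total reads. HIS4, a histidine synthesis enzyme, had 4187 and 4386 normalized counts in DZA and 18462 and 18509 in DMSO, a log2 fold change of -2.11 ± 0.051 (SE, limma adjusted p = 0.00019). GLN1, the glutamine synthetase, had 11135 and 11294 in DZA and 48224 and 46492 in DMSO, a log2 fold change of -2.08 ± 0.049 (SE, limma adjusted p = 0.00018), and ARG1, the argininosuccinate synthetase, had -1.43. GCN4, their activator, is regulated mainly by translation, and its message had a log2 fold change of -0.47. MET6, the methionine synthase, had 8485 and 7876 normalized counts in DZA and 44581 and 40278 in DMSO (-2.37 ± 0.075), the sharpest fall of the 30 genes of methionine and sulfur assimilation, of which 10 were called lower and 3 higher (15 and 9 with the replicate block), with a median of -0.083 that became 0.21 when scaled to total reads.

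Of 31 genes of nucleotide synthesis 20 were called lower and 1 higher (25 and 4 with the replicate block, 15 and 5 when scaled to total reads), and ADE17, a late enzyme of purine synthesis, stood at 1541 and 1777 normalized counts in DZA, against 10054 and 10419.8 in DMSO, a log2 fold change of -2.63 ± 0.087 (SE, limma adjusted p = 0.00024). It was the 1 gene outside the r-proteins, apart from the uncharacterised YGL188C-A (-2.79), among the 10 largest falls. IMD2, an IMP dehydrogenase of guanine synthesis, had -0.39, and RNR3, the DNA damage-inducible ribonucleotide reductase subunit, rose by 1.17. In ergosterol synthesis 16 of 26 were called lower and 2 higher (21 and 4 with the replicate block, 9 and 5 when scaled to total reads), with ERG11, the lanosterol demethylase, at -1.45 and ERG3, the desaturase, at -1.41.

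Many genes of energy metabolism fell. Of 19 genes of glycolysis and fermentation 17 were called lower, with a median of -0.59 ± 0.059, and 9 with a median of -0.29 when scaled to total reads. These genes took 7.47% and 7.56% of reads in DZA and 8.84% and 8.92% in DMSO. The exception was PDC5, a minor pyruvate decarboxylase, with 2003 and 2347 normalized counts in DZA and 857 and 1037 in DMSO, a log2 fold change of 1.20 ± 0.14 (SE, limma adjusted p = 0.0035), beside -0.80 for the main one, PDC1. HXT4, a high-affinity hexose transporter, had 124 and 135 normalized counts in DZA and 618 and 829.9 in DMSO, a log2 fold change of -2.46 ± 0.18 (SE, limma adjusted p = 0.0013), and HXT6, which is nearly identical to HXT7, rose by 1.38. Of 41 genes of the TCA cycle and respiration 29 were called lower (17 when scaled to total reads), with CYT1, cytochrome c1, at -1.25 and COX4, a subunit of cytochrome oxidase, at -1.22.

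Nutrient uptake and cell wall lists were mixed. Of 18 genes of iron and copper uptake 3 were called higher and 9 lower, with the iron oxidase and permease genes FET3 (-1.86) and FTR1 (-1.57) among the falls, while FRE2, a ferric reductase, rose by 1.39. Of 11 genes of the phosphate regulon 4 were called higher and 4 lower (5 and 1 when scaled to total reads), with a median of 0.046, and the phosphate transporter gene PHO84, at -1.91, was among those called lower. Among cell wall genes 8 of 15 were called lower and 3 higher (10 and 5 with the replicate block), with SED1, an abundant wall protein, at -1.24, but their median of -0.25 became 0.044 when scaled to total reads.

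Cell cycle genes were lower at several stages. Of 11 mitotic genes 9 were called lower (5 when scaled to total reads), and CLB1, a B-type cyclin of G2 and mitosis, had 1165 and 839 normalized counts in DZA and 4547 and 4015 in DMSO, a log2 fold change of -2.11 ± 0.18 (SE, limma adjusted p = 0.0017). CLB2, its more abundant paralog, had -0.72. Of 17 genes of the G1/S transition 11 were called lower and 2 higher (3 lower and 4 higher when scaled to total reads), with CLN2, a G1 cyclin, at 5884 and 6158 normalized counts in DZA and 10652 and 10481 in DMSO (-0.81 ± 0.052, limma adjusted p = 0.00091). RFA1, which binds single-stranded DNA, rose by 0.96. Daughter-cell genes had 9 of 11 called lower (3 when scaled to total reads), with ASH1, a daughter-specific repressor, at -0.80, and histone genes 6 of 11 (10 with the replicate block and 4 when scaled to total reads), with HTB1, a gene of histone H2B, at -0.33, a call lost without DZA replicate A or DMSO replicate B. The 5 a-cell genes were all called lower too, and 2 when scaled to total reads, with MFA1, an a-factor gene, at -1.33. Whether fewer cells were in a stage or each held less RNA cannot be told apart in these bulk samples.

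Genes of autophagy and vacuolar proteases had 5 of 13 called higher and 3 lower, against 23.7% each way over all features, and 7 higher and 0 lower when scaled to total reads, with a median of 0.031 that became 0.32. ATG1, the kinase that starts the process, had 8885 and 8982 normalized counts in DZA and 2755 and 2710.1 in DMSO, a log2 fold change of 1.71 ± 0.05 (SE, limma adjusted p = 0.00022). ATG41, an autophagy factor that interacts with Atg9, rose by 1.49 and PRB1, the vacuolar proteinase B, by 1.25. The vacuolar aminopeptidase gene APE1, at -0.46, was among those called lower.

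**Figure D5:**
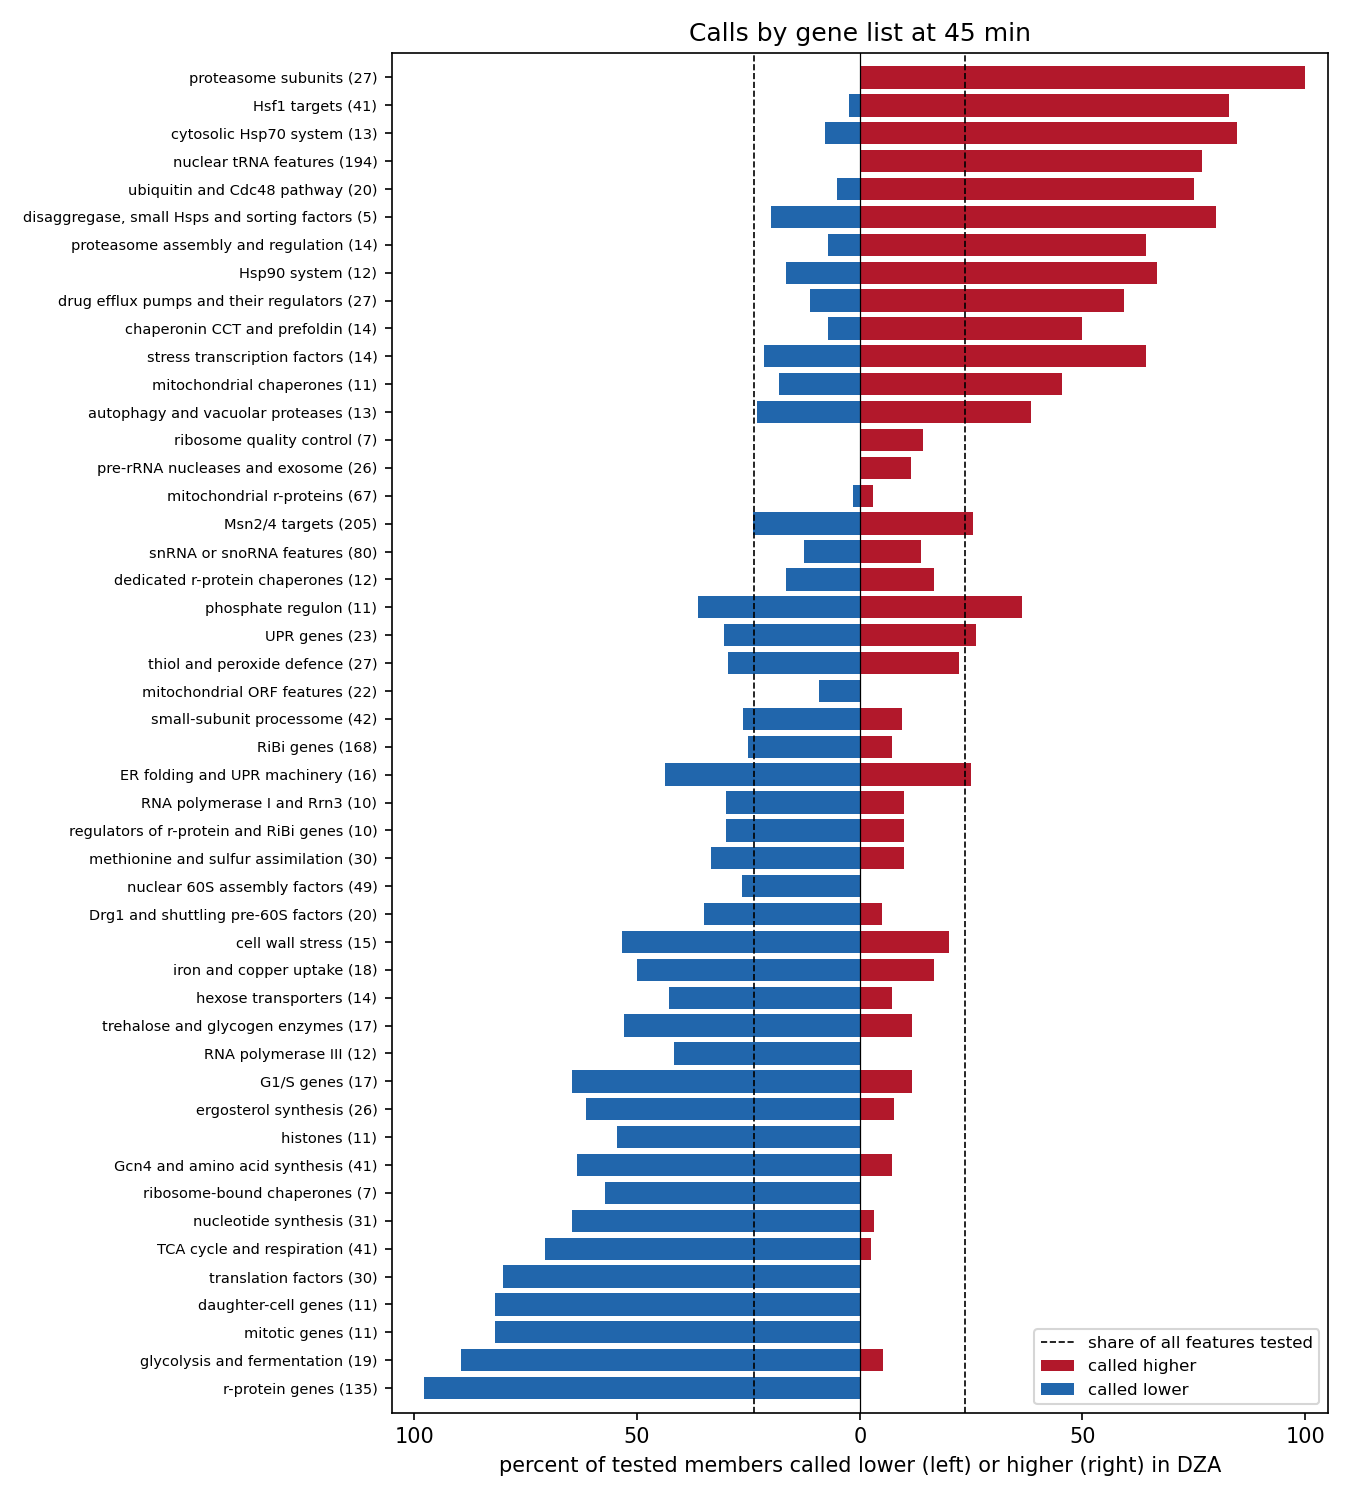
Share of the tested members of each list called higher (bars to the right) or lower (bars to the left) in DZA at 45 min, with the number tested in brackets and dashed lines at the share of all 6476 features (23.7% each way). Proteasome subunits, the Hsp70 system and Hsf1 targets reach furthest to the right, and r-protein genes and glycolysis furthest to the left.

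Nuclear tRNA genes rose, and among called features with a mean of at least 100 and one sign in both pairs the 10 largest rises were all tRNA genes. Of 275 nuclear tRNA features 194 passed the filter, and 149 of them were called higher (76.8%, against 23.7% of all features). The 194 had a median of 2.43 ± 0.4 on the log2 scale, and all had a positive value. In 185 both DZA libraries lay above both DMSO libraries, which holds for 37.1% of all features. The filter takes the mean over all 4 libraries, so a feature low in DMSO could pass through its DZA counts alone. Median reads per tested tRNA feature were 153 and 52.5 in DZA and 36.5 and 5 in DMSO. These counts of rises are therefore not independent of the filter, and the ranking of the largest rises is not independent of its minimum mean of 100. In that ranking all tRNA genes except tP(UGG)H (124 and 114) had under 100 normalized counts in both DMSO libraries. All tRNA features together held 90334 and 23727 reads in DZA, against 16338 and 1870 reads in DMSO, so in every library they were a small part of the reads, at most 0.107%. The arginine tRNA tR(UCU)K had 209 and 321 normalized counts in DZA and 14.5 and 11.4 in DMSO, a log2 fold change of 4.23 ± 0.30 (SE, limma adjusted p = 0.0012), the largest under the rule for named genes. A serine tRNA, tS(UGA)P, had 1641 and 1258 in DZA and 92.9 and 68.2 in DMSO (4.16 ± 0.22). The SD between replicate medians, 0.4, was larger than that of the 6 classes, and many tRNA genes are copies of one another, so the counts of single copies are uncertain. Whether the reads come from mature tRNAs or precursors was not tested.

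Each time point had its own DMSO libraries, so the 45 min response could be set against that at 15 min in an interaction test (edgeR on whole reads recovered from the tables). At 15 min limma called 311 of 6311 features changed (4.93%), 240 higher (3.8%) and 71 lower (1.13%). Class medians at 45 min and at 15 min were 0.95 and 1.23 for Hsf1 targets, 0.90 and 0.28 for proteasome subunits, -1.68 and -0.75 for r-protein genes and -0.12 and 0.39 for RiBi genes. They were -0.025 and -0.44 for Msn2/4 targets and 0.071 and -0.037 for UPR genes. The Hsf1 targets had thus the lower median at 45 min, and the proteasome and r-protein genes had moved further from 0. The interaction called 228 of 6557 features (3.48%), 119 with the more positive value at 45 min (1.81%) and 109 with the more negative one (1.66%). Among them were 12 of 27 proteasome subunits, all with the more positive value at 45 min, and 56 of 135 r-protein genes with the more negative one, beside 1 with the more positive one. Of 206 Msn2/4 targets 5 were called with the more positive value at 45 min and 0 with the more negative one. The class medians themselves were not tested against each other. BTN2 (3.32 at 45 min, 4.91 at 15 min) and HSP82 (2.82 and 3.15) were not among them, with edgeR adjusted p values of 0.1 and 0.73 for the difference.

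These differences between the times rest on few libraries. The edgeR interaction called 0 features with the replicate block, although 1341 had an unadjusted p under 0.05, and 0 when any of the 45 min libraries or the DZA libraries of 15 min was left out (828 to 901 at an unadjusted p under 0.05). It called 1623 without DMSO replicate A of 15 min and 2090 without replicate B, and DESeq2 called 758.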

How the data were processed

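Ribosomal RNA-depleted total RNA was sequenced from wild-type cells after 45 min in DZA or DMSO, 2 libraries each, and the 2 DZA and 2 DMSO libraries of 15 min were used only for the comparison of times. According to the deposited processing notes and the methods, the authors trimmed reads with cutadapt, aligned them with TopHat2 2.1.0, handled alignments with SAMtools, counted reads per feature with HTSeq and normalized them with DESeq2. The deposited values are a signal, read counts that the authors divided by size factors. Columns with the fold changes and p-values of the authors were not used, and 0 value columns were unmapped. The strand setting of the counting is not given in the sources used here.

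Dividing by the smallest step of each library gave whole reads for 100% of values (tolerance 1e-06), so depths are known (25015296 to 99585064 reads). Features whose normalized counts averaged 10 or more were fitted with limma 3.58.1 (R 4.3.3) on log2(normalized count + 1), with trended empirical Bayes, the 4 libraries of 45 min and no covariate, and p-values were adjusted by Benjamini-Hochberg over all 6476 features at 0.05. The ± after the log2 fold change of a single feature is its SE. After the median of a list it is the SD of the medians from the A libraries alone and the B libraries alone. The main test stayed limma because the values are normalized. On recovered reads edgeR 4.0.16 (quasi-likelihood test) called 1636 features higher and 1423 lower, and DESeq2 1.42.0 called 1476 and 1589. Scripts were tested on simulated data. Replicates were grown on separate days per the labels and share letters across treatments. Deviations of same-letter libraries from their group means correlated with r = 0.577 over 6476 features. The letters were therefore taken as pairs in the replicate block and in the rule of one sign in both pairs. The main limma fit took no account of them, so its calls, SEs and p-values are unpaired.

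Genes named are a set of anchor genes, up to 3 largest rises and falls of each list among called genes with a mean of at least 100 and one sign in both pairs, and the 10 largest rises and falls overall. Paralogs of named genes, the genes whose sequences are shown, the r-protein genes not called and genes said to be so were named after their values were seen. The classes and lists were chosen with earlier results of these data known. Promoters are the 500 bases before 6004 nuclear genes in R64, and 6048 of 7126 features were matched to that annotation. Alternatives were other pseudocounts, filters, scalings and tools, the replicate block and leaving out each library.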

Additional observations from a re-analysis of the deposited data

Results flagged for a closer look

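The effect of DZA differed between 45 min and 15 min for 228 features in the edgeR interaction test, 3.48% of those tested. Given as the log2 effect of DZA at 45 min minus that at 15 min, the anchor genes that passed were UBI4 at 2.38 (edgeR adjusted p = 0.047), FLR1 at 0.97 (edgeR adjusted p = 0.033), SSA1 at 0.83 (edgeR adjusted p = 0.027), RPN4 at -0.98 (edgeR adjusted p = 0.035) and RPL7B at -2.32 (edgeR adjusted p = 0.011). RPN4, the transcription factor of the proteasome genes, was called higher in DZA at both times in the limma fits, with 1.42 at 45 min and 2.44 at 15 min. UBI4, the polyubiquitin gene, had 2.76 at 45 min and 0.53 at 15 min, where it was not called. SSA1 had 2.28 at 45 min and 1.49 at 15 min, and RPL7B -3.10 at 45 min and -0.74 at 15 min. All 5 calls were lost with the replicate block and when any 45 min library or either DZA library of 15 min was left out, since no feature passed the edgeR test in those fits (828 to 1341 at an unadjusted p under 0.05, and 758 adjusted calls by DESeq2 on all libraries).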

How the results depend on the processing

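Scaling to total reads, added after the data were seen, gave 3035 features higher and 627 lower, Hsf1 targets 0 lower and a median of 1.24, Msn2/4 targets 94 higher, 24 lower and 0.27, r-protein genes 1 higher and -1.39, proteasome subunits 1.20, RiBi genes 66 higher, 10 lower and 0.18, UPR genes 10 higher, 1 lower and 0.36. Under it 10 named genes changed sign: PPT1 (0.0086), CPR7 (0.11), SKN7 (0.014), VTC3 (0.026), PRC1 (0.058), MRPL6 (0.060), MSN2 (0.14), CTT1 (0.17), RLP24 (0.13) and IFH1 (0.087). With the replicate letters as pairs (replicate block) limma called 4831 features, 2541 of them lower, with Msn2/4 targets 81 lower, RiBi genes 32 higher and 94 lower and UPR genes 10 higher. Medians under other settings were, for Hsf1 targets, 0.97 under TMM scaling and 0.99 when median-centred, for Msn2/4 targets -0.0059 under TMM, 0.015 when median-centred and -0.0028 with edgeR, and for RiBi genes -0.076 when median-centred. The 1 Hsf1 target called lower became 0 at a pseudocount of 10, with no filter, under TMM, when median-centred, and with edgeR or DESeq2 (HSP26, whose limma p sat at the threshold). Leaving out 1 library gave 2184 to 2788 calls in all, Hsf1 targets 0 to 0 lower and medians of 0.81 to 0.96, Msn2/4 medians of -0.034 to 0.00092, r-protein medians of -1.73 to -1.64, RiBi genes 5 to 9 higher and medians of -0.15 to -0.089, UPR genes 2 to 5 lower, and SQT1 -0.0067 to 0.13, negative without DMSO replicate B (-0.0035) or DZA replicate A. The edgeR interaction with 15 min called 0 features with the replicate block (1341 at an unadjusted p under 0.05), 758 with DESeq2, and 0 to 2090 when 1 library was left out. Of 246 named genes, 176 kept direction and side of the threshold in every alternative. Recovered reads, down to a median of 5 per tRNA feature in DMSO replicate B, limit single tRNA values.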

Other observations

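Some of the sharpest rises at 45 min lay outside every list and are named here after their values were seen. NCA3, a SUN-family gene, had 4163 and 4580 normalized counts in DZA and 510.5 and 557 in DMSO, a log2 fold change of 3.03 ± 0.090 (SE, limma adjusted p = 0.00023). MAG1, a DNA glycosylase that removes alkylated bases and the divergent neighbour of DDI1, had 6741 and 6925 in DZA and 1046 and 1062 in DMSO (2.70 on the log2 scale). BIO2, the biotin synthase, had 18438 and 18273 in DZA, against 3186 and 3203 in DMSO (2.52). For all 3 genes both DZA libraries lay above both DMSO libraries. Meiotic genes were among them too: RIM4, an RNA-binding repressor of meiotic translation, had 1367 and 1358 normalized counts in DZA and 219 and 207 in DMSO (2.67), and NDT80, the activator of middle meiotic genes, had 812 and 873 in DZA and 156 and 118 in DMSO (2.62). ARO10, a decarboxylase of the fusel alcohol pathway, rose by 2.36 and AGP3, an amino acid permease, by 2.52. Among falls outside the lists, ASC1, which encodes a protein of the head of the 40S subunit, had 46498 and 37868 normalized counts in DZA and 133871 and 105071 in DMSO (-1.50), and MRH1, a plasma membrane protein, had -1.71.

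Small nuclear and nucleolar RNA features were called in both directions, but less often than all features. Of 80 tested 11 were called higher (13.8%) and 10 lower (12.5%), against 23.7% each way over all features. The counts were 21 and 29 with the replicate block, and 17 and 5 when scaled to total reads. These 80 features had a median of 0.0084 and an SD of 0.42 between replicate medians. The largest falls among them were snR87 (-1.27), snR44 (-0.91) and snR39 (-0.80), and snR44 and snR39 are processed from introns of r-protein genes. The largest rises were snR71 (1.62) and snR66 (1.50). Few genes of the mitochondrial ribosome were called: of 67 tested 2 were called higher and 1 lower, with a median of 0.016, although with the replicate block 15 were called higher and 19 lower, and scaled to total reads 32 were called higher.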
